A study of Homo sapiens with 3 samples.

Results

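The genes described here encode the nuclear lamins (LMNA, LMNB1 and LMNB2), a pair of proteins that tie the lamina to the inner nuclear membrane (LBR and TMPO) and the high mobility group proteins of the HMGB and HMGA families (HMGB1, HMGB2, HMGB3, HMGA1 and HMGA2). They were chosen by name, with earlier results of these data known. Loss or redistribution of some of their proteins is used to mark senescent cells. Every probe carrying the name of a member in the array design was taken. Of the 10 listed genes, 9 had a probe, and these 9 were measured by 15 of the 34127 probes on the array. No probe carried the name HMGB1, so HMGB1 itself was not analysed here.

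RNA came from HepG2 cells, an established human hepatocellular carcinoma line grown in medium with serum. The cells received no etoposide (control cells, labelled untreated, whereas the study describes a DMSO control), 10 μM etoposide (the low dose) or 100 μM etoposide (the high dose), each for 30 h. Etoposide traps topoisomerase II on cleaved DNA and so leaves double-strand breaks. The study proposes that the low dose mainly brings about senescence and the high dose mainly apoptosis. It chose 30 h as the middle of the period in which blocking transcription most hindered senescence. Its counts of senescent cells in that experiment and of apoptotic cells were made later, and apoptotic cells were a minority at both doses. The arrays are thus not those of fully senescent or apoptotic cultures. Each dose was measured once, on a 1-color Agilent array of 60-base probes, so there are 3 arrays in all and no test between doses was possible.

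Lamins form a meshwork of filaments under the inner nuclear membrane. B-type lamins stay attached to the membrane through a lipid tail, whereas lamin A and lamin C, both made from LMNA, are also found in the nuclear interior. LBR and the lamina-associated polypeptides encoded by TMPO bind lamins and chromatin, and loss of lamin B1 is one of the best-known nuclear changes of senescent cells. HMGB proteins bend DNA through HMG boxes, and loss of HMGB2 from chromatin and release of HMGB1 from the nucleus accompany senescence. HMGA proteins bind AT-rich DNA through AT-hooks and have been described in the senescence-associated heterochromatin foci of fibroblasts.

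A signal below is the deposited intensity after scaling to the 75th percentile of its array, with control cells kept on the deposited scale, and a fold change is the ratio of 2 such signals. Its error is the spot-to-spot SD on the log2 scale, taken from probes of similar signal that are spotted repeatedly on the same array. This SD covers the spots of 1 array and not the spread between cultures or RNA preparations, which was not measured. All 15 probes were spotted once, and each was well above background on all 3 arrays. Since the RNA is from whole cultures, fewer cells making a transcript and less transcript per cell cannot be told apart, and the dose cannot be told apart from the single culture and array that represent it.

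Promoter sequence was available in RefSeq (GRCh38.p14) for 7 of the 9 genes, as 13 windows from 250 bases before to 50 bases after a start site. The windows are shown for LMNB1, TMPO and HMGB3, which were all more than 2-fold lower at the high dose than at the low dose. These windows were picked because they hold the CCAAT box (CCAAT, or ATTGG on the other strand), frequent in promoters active late in the cell cycle. Whether the boxes bear on the signals was not tested. LMNB1, TMPO and HMGB3 each had 2 windows. For LMNB1 and HMGB3 the 1 with CCAAT boxes is shown, and for TMPO the first of 2 overlapping windows that hold the same boxes. The 250 bases before the start are printed 5′ to 3′ on the strand of the gene, with CCAAT boxes and the cell cycle homology region (TTTGAA, or TTCAAA on the other strand) in capitals. LMNB1 is chr5:126776886-126777135, TMPO is chr12:98515323-98515572 and HMGB3 is chrX:150983085-150983334, all on the plus strand.
LMNB1: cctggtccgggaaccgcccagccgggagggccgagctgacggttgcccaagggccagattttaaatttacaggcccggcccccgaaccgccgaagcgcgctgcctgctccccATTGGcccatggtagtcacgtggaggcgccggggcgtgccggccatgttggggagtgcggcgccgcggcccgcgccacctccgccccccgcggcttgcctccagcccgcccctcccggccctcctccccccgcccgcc
TMPO: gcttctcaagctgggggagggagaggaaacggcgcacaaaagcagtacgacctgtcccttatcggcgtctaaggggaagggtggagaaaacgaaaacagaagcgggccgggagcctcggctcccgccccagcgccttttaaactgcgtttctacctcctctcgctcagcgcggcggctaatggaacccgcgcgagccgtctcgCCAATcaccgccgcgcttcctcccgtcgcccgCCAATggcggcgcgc
HMGB3: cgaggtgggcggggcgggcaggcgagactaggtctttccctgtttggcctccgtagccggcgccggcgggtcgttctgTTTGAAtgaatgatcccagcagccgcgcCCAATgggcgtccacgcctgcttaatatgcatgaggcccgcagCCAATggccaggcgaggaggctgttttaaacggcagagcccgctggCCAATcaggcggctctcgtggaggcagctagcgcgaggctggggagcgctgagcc

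CCAAT boxes were also present in a window of LMNA, whose signal was higher at both doses than in control cells. Both windows of HMGA1, which did not pass 2-fold, held 1 too, in 1 of them 38 bases after the start. In the printed windows the LMNB1 promoter held 1 CCAAT box, TMPO held 2 and HMGB3 held 3. The cell cycle homology region was present in the window of HMGB3, 172 bases before the start, and in that of LMNB2, 246 bases before it. Over both strands, a CCAAT box was found in 7 of the 13 member windows (the overlapping windows of TMPO counted separately) and in 34.6% of all 35116 windows of the same length, and TTTGAA was found in 2 of 13 and in 15.2%. The E2F motif TTTCCCGC was in 1 member window, of LMNA, and in 1.63% of all windows, and TTTGGCGC was in none of the 13 and in 0.652%. The GC box GGGCGG, of which 1 partly overlaps the E2F match in LMNA, was in 10 of 13 windows and in 45.0% of all. The LBR window held none of these motifs, and LBR was 2.38-fold lower at the high dose than in control cells. HMGB2 and HMGA2 had no entry.

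At the low dose, no member was more than 2-fold higher or more than 2-fold lower than in control cells. Among all 16719 genes above background on 1 or both of these arrays, 3.37% were more than 2-fold higher and 1.60% more than 2-fold lower. At the high dose, 4 of the 9 members were more than 2-fold lower than in control cells (LMNB1, LBR, TMPO and HMGB2), against 3.66% of 16984 genes. No member was more than 2-fold higher at the high dose, against 6.76% of genes. Between the doses, 4 of 9 members had a signal at 10 μM more than 2-fold above that at 100 μM (LMNB1, TMPO, HMGB2 and HMGB3), against 3.63% of 16793 genes, and none was more than 2-fold lower, against 3.95%. LBR was just short of that threshold, at 1.985-fold. With a 3-fold threshold, LMNB1 and HMGB2 remained in both comparisons, against 1.67% of genes lower at 100 μM than in control cells and 1.88% higher at 10 μM than at 100 μM. At 1.5-fold between the doses, 7 of 9 members were higher at 10 μM, against 7.47% of genes. The median log2 fold change of the 9 members was -0.20 at the low dose, -0.92 at the high dose and 0.99 between the doses, while that of the 15178 genes above background on all arrays was -0.03, 0.08 and -0.09. As the plot of each gene by dose shows, LMNA alone among the 9 had a higher signal at the high dose than in control cells.

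**Figure D1:**
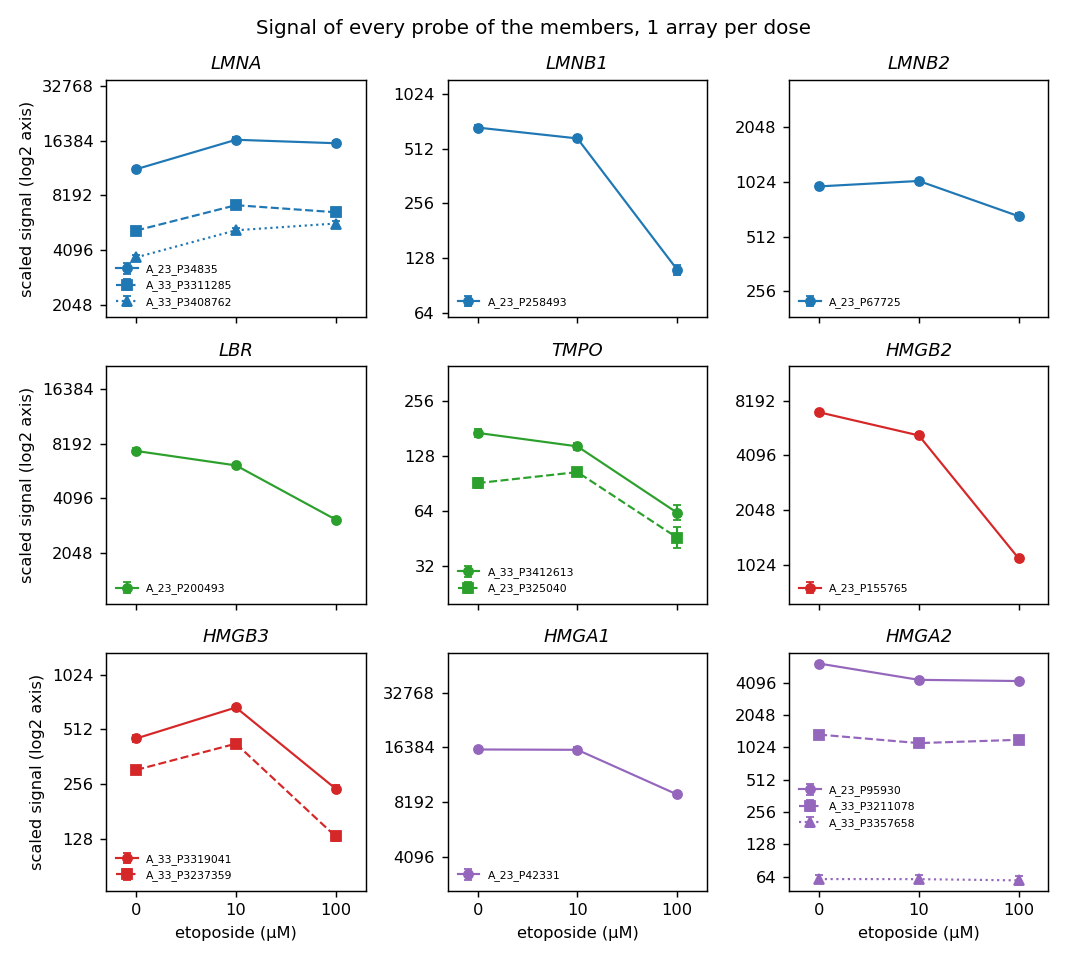
Scaled signal (log2 axis) of all 15 probes of the 9 genes at 0, 10 and 100 μM etoposide, 1 array per dose, with lamins in blue, inner nuclear membrane proteins in green, HMGB genes in red and HMGA genes in purple, and bars of 1 spot-to-spot SD, often smaller than the symbol. LMNB1 and HMGB2 were 1.15-fold and 1.34-fold lower than control at 10 μM and more than 6-fold lower at 100 μM, LMNA was higher at both doses, and HMGB3 was highest at 10 μM at both of its probes.

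The lamins differed from each other at the high dose. LMNB1, which encodes the lamin B1 of nearly all cell types, had a scaled signal of 668.9 in control cells, 583.1 at 10 μM and 110.9 at 100 μM. The low dose was thus 1.15-fold below control, with a log2 fold change of -0.20 (spot-to-spot SD 0.07). This value stayed below 0 under every alternative, from -0.22 to -0.14. The high dose was 6.03-fold below control (log2 fold change -2.59, SD 0.10) and 5.26-fold below the low dose. Of the 15178 genes above background on all arrays, 0.362% had a lower fold change at the high dose than LMNB1. Its probe, A_23_P258493 (NM_005573), lies on chromosome 5 of hg18 from 126200382 to 126200441.

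LMNB2, which encodes the other B-type lamin, had a scaled signal of 967.8 in control cells, 1037 at 10 μM and 664.1 at 100 μM. It thus stayed within 1.07-fold of control at 10 μM and was 1.46-fold lower at 100 μM (log2 fold change -0.54, SD 0.07). Relative to control cells, LMNB2 was 4.14-fold higher than LMNB1 at the high dose (difference in log2 fold change 2.05, SD 0.13). This difference between 2 genes on the same pair of arrays does not depend on a scaling that moves all probes equally. It does depend on the background correction, since LMNB1 was at -1.93 with normexp background correction. The probe of LMNB2, A_23_P67725 (NM_032737), lies on chromosome 19 of hg18 from 2379183 to 2379242 on the minus strand.

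LMNA was measured by 3 probes. The brightest, A_23_P34835 (NM_005572, the lamin C transcript), had a scaled signal of 11410 in control cells, 16560 at 10 μM and 15850 at 100 μM. Its log2 fold change was 0.54 (SD 0.06) at 10 μM and 0.47 (SD 0.06) at 100 μM, or 1.45-fold and 1.39-fold. A probe listed under the lamin A transcript, A_33_P3311285 (NM_170707), gave 5250, 7236 and 6617, and the third probe, A_33_P3408762, gave 3738, 5267 and 5736. All 3 probes were thus higher at both doses than in control cells, by 1.26-fold to 1.53-fold. The first 2 lie on chromosome 1 of hg18, from 154374095 to 154374154 and from 154376398 to 154376457. A_33_P3311285 and the third probe differed at the high dose by 0.28 on the log2 scale, which is 3.11 spot-to-spot SD. Which transcripts the LMNA probes bound was not tested.

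At the low dose, LMNA and LMNB1 were separated by 0.74 on the log2 scale (SD 0.09), and at the high dose by 3.07 (SD 0.12). In other words, relative to control cells the ratio of LMNA to LMNB1 signal was 1.67-fold higher at 10 μM and 8.38-fold higher at 100 μM. At 100 μM, where LMNB1 was dim, this ratio was smaller with normexp background correction (log2 fold changes 0.41 for LMNA and -1.93 for LMNB1). The ratio of LMNA to LMNB2 was 1.36-fold and 2.02-fold higher.

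Both genes of inner nuclear membrane proteins were lower at the high dose. LBR encodes the lamin B receptor, a membrane protein that binds B-type lamins and heterochromatin protein 1 and also acts as a sterol reductase. Its scaled signal was 7460 in control cells, 6213 at 10 μM and 3130 at 100 μM. The log2 fold change was -0.26 (SD 0.06) at 10 μM and -1.25 (SD 0.06) at 100 μM, so the high dose was 2.38-fold below control. At the high dose LBR lay between the lamins, with a log2 fold change 1.34 above that of LMNB1 (SD 0.12), while LMNA was 1.73 above LBR (SD 0.09). Its probe, A_23_P200493 (NM_002296), lies on chromosome 1 of hg18 from 223655905 to 223655964 on the minus strand.

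TMPO encodes the lamina-associated polypeptides 2, of which the beta form spans the inner membrane and the alpha form is soluble in the nucleus and binds A-type lamins. The probe listed under a beta transcript was A_33_P3412613 (NM_001032283, chromosome 12 of hg18 from 97466463 to 97466522). It had a scaled signal of 171.5 in control cells, 144.6 at 10 μM and 62.43 at 100 μM. The probe listed under the alpha transcript, A_23_P325040 (NM_003276, from 97452391 to 97452450), gave 90.85, 104.4 and 45.55. Which transcripts these probes bound was not tested. Both probes were lower at the high dose than in the other 2 conditions. From control the first was lower by 2.75-fold and the second by 1.995-fold, just short of the threshold. Their log2 fold changes at the high dose were -1.46 (SD 0.16) and -0.996 (SD 0.21). At 10 μM they stood on opposite sides of control, at -0.25 and 0.20, a difference of 2.79 spot-to-spot SD. Between the doses they gave nearly the same value, with the low dose 2.32-fold and 2.29-fold above the high dose. With normexp background correction this difference was 0.56 and 0.41 on the log2 scale, so that TMPO did not pass 2-fold between the doses.

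**Figure D2:**
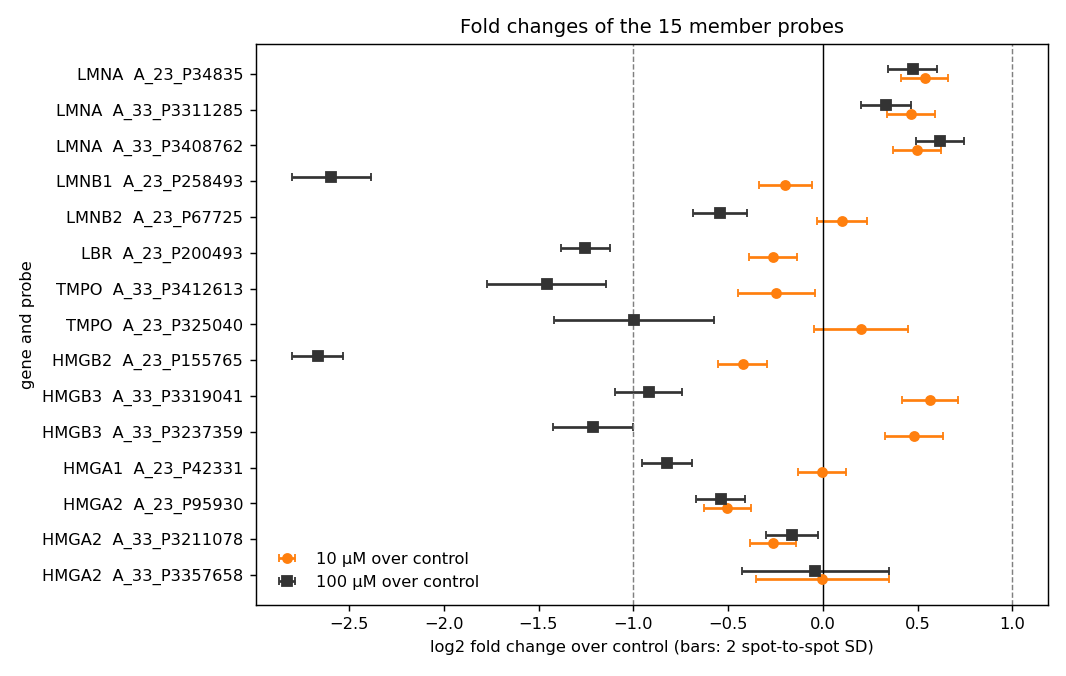
Log2 fold change over control of each of the 15 probes at 10 μM (orange circles) and 100 μM (black squares) etoposide, with bars of 2 spot-to-spot SD and dashed lines at 2-fold. At 10 μM all probes lie inside the lines, and at 100 μM those of LMNB1, LBR and HMGB2, 1 of the 2 TMPO probes and 1 of the 2 HMGB3 probes lie below -1.

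HMGB2, which encodes a DNA-bending protein abundant in dividing cells, had the lowest fold change of the 9 genes at the high dose. Its scaled signal was 7063 in control cells, 5268 at 10 μM and 1113 at 100 μM. The log2 fold change was -0.42 (SD 0.06) at 10 μM and -2.67 (SD 0.07) at 100 μM, where HMGB2 was 6.35-fold lower than in control cells and 4.73-fold lower than at the low dose. Of all genes above background on all arrays, 0.31% had a lower fold change at the high dose. HMGB2 and LMNB1 differed by 0.07 at the high dose, less than the SD of that difference (0.12). The probe of HMGB2, A_23_P155765 (NM_002129), lies on chromosome 4 of hg18 from 174489588 to 174489647 on the minus strand.

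HMGB3, a related HMG-box gene of chromosome X, was higher at 10 μM and lower at 100 μM at both of its probes. The brighter, A_33_P3319041 (NM_005342, from 149909838 to 149909897), had a scaled signal of 456.2 in control cells, 675.4 at 10 μM and 241.5 at 100 μM. The other, A_33_P3237359 (from 149907231 to 149907290), gave 306.4, 427.2 and 132. The log2 fold changes at the low dose were 0.57 (SD 0.07) and 0.48 (SD 0.08), and those at the high dose were -0.92 (SD 0.09) and -1.21 (SD 0.11), so only the second passed 2-fold below control. Between the doses HMGB3 differed by 2.80-fold and 3.24-fold. Compared with HMGB2, HMGB3 was 0.99 higher on the log2 scale at the low dose (SD 0.10) and 1.75 higher at the high dose (SD 0.11).

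In the absence of a probe named HMGB1, the nearest names on the array are those of 2 processed copies of HMGB genes. HMGB1L1 (now HMGB1P1, probe A_24_P169148) had deposited signals of 7214 without etoposide, 7287 at 10 μM and 2548 at 100 μM, and was 2.38-fold lower at the high dose than in control cells after scaling. HMGB3L1 (now HMGB3P1, probe A_23_P373119) had deposited signals of 1333, 1801 and 453.7 and was 1.30-fold higher at 10 μM and 2.47-fold lower at 100 μM. Such copies are nearly identical to their parent genes, and which transcript these probes bound was not tested, so neither is counted as a value of HMGB1 or HMGB3.

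The HMGA genes differed less from control cells at the high dose than HMGB2 did. HMGA1, which encodes an AT-hook protein common in tumor cells, had a scaled signal of 15950 in control cells, 15880 at 10 μM and 9026 at 100 μM. The low dose was thus indistinguishable from control within the spot-to-spot SD (log2 fold change -0.01, SD 0.06), and the sign of this value turned without scaling and under quantile and spike-in scaling. At the high dose HMGA1 was 1.77-fold lower than control (log2 fold change -0.82, SD 0.07). Its probe, A_23_P42331 (NM_145901), lies on chromosome 6 of hg18 from 34321573 to 34321632.

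HMGA2, normally a gene of embryonic tissue that many tumors express again, was measured by 3 probes on chromosome 12 of hg18. The brightest, A_23_P95930 (NM_003483, from 64646056 to 64646115), had a scaled signal of 6149 in control cells, 4338 at 10 μM and 4229 at 100 μM. It was lower at both doses by about the same amount, 1.42-fold and 1.45-fold. The array lists A_33_P3211078 and A_33_P3357658 under a shorter transcript (NM_003484, from 64505368 to 64505427 and from 64595507 to 64595566). These probes gave 1343, 1119 and 1201, and 60.86, 60.75 and 59.18. At the high dose the first of these was 1.12-fold lower than control and differed from the brightest probe by 0.38 on the log2 scale, or 4.03 spot-to-spot SD. The other had a log2 fold change of -0.04 with an SD of 0.19. Which transcripts the probes bound was not tested, so their differences are not read as differences between transcripts. The probes of HMGA2 thus disagreed, and that of A_33_P3211078 is shown because it lies in the coding sequence of the first AT-hook, whose core codons are in capitals. With 70% G and C bases it was the most GC-rich of the 15 probes, which otherwise held 26.7% to 60%.
HMGA2 A_33_P3211078: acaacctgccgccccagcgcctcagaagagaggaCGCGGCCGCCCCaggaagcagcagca

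By its brightest probe, HMGA2 was lowest of the 9 genes at the low dose, within 2 spot-to-spot SD of HMGB2, while the mean of its 3 probes (-0.26) lay above HMGB2. The brightest probe differed from HMGA1 there by -0.50 on the log2 scale (SD 0.09), whereas at the high dose it was 0.28 above HMGA1 (SD 0.09). Among the genes linked to HMGA2 through the RNA-binding protein LIN28, LIN28B had deposited signals of 5346, 3081 and 2226 and log2 fold changes of -0.86 and -1.01 at the low and high dose. IGF2BP1, a fetal mRNA-binding protein gene, had -0.41 and -0.68, and IGF2BP2 had -0.34 and -0.12. IGF2BP3 had -0.38 and -0.32, and DICER1, which encodes the enzyme that cuts microRNA precursors, had -0.07 and -0.37. Of the 5 genes of this list above background, 1 (LIN28B) passed 2-fold, at the high dose, downward and by a narrow margin, beside 3.66% of all genes. The medians of the 5 were -0.38 and -0.37, beside -0.03 and 0.08 over all genes.

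**Figure D3:**
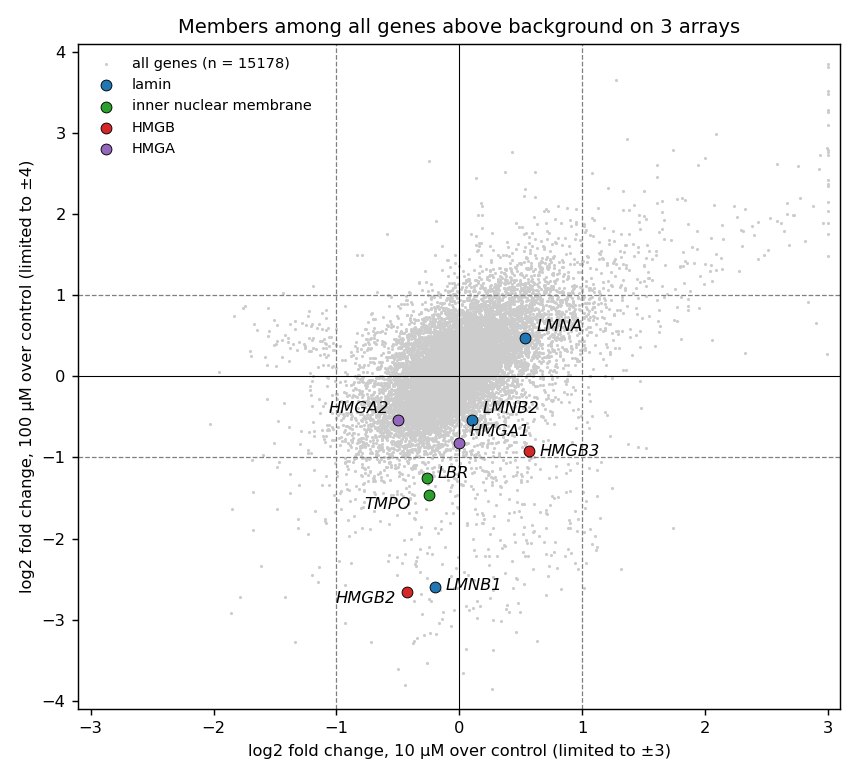
Log2 fold change over control at 10 μM (x axis) and 100 μM (y axis) of the 15178 genes above background on all 3 arrays (grey, limited to the ranges on the axes), with the 9 members colored by role and dashed lines at 2-fold. All 9 members lie between the vertical lines, and LMNB1 and HMGB2 lie side by side near -2.6 on the y axis, apart from the other members.

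The genes were ordered by the fold change of their brightest probe. At the high dose the order from lowest to highest was HMGB2, LMNB1, TMPO, LBR, HMGB3, HMGA1, LMNB2, HMGA2 and LMNA. HMGB2 and LMNB1, TMPO and LBR, HMGB3 and HMGA1, and LMNB2 and HMGA2 were neighbors within 2 spot-to-spot SD of each other. The steps from LMNB1 to TMPO (1.14 on the log2 scale, SD 0.19) and from HMGA2 to LMNA (1.01, SD 0.09) were the widest. Order and steps depended on the probe and the background correction. The dimmer HMGB3 probe (-1.21) lay close to LBR, and the mean of the HMGA2 probes was -0.25. With normexp background correction LMNB1 (-1.93) lay apart from HMGB2 (-2.67), and TMPO (-0.73) lay above LBR (-1.28). At the low dose the order by the brightest probes ran from HMGA2, HMGB2, LBR, TMPO and LMNB1 through HMGA1 and LMNB2 to LMNA and HMGB3. The steps beyond 2 spot-to-spot SD were those between LMNB1 and HMGA1 and between LMNB2 and LMNA.

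The genes nearest to each member by its 2 fold changes over control were found among 12046 genes with a RefSeq mRNA accession, as a description of these arrays. Those nearest to LMNB1 were PRR11, CDCA3 and CDCA8, the last 2 named for their tie to cell division. Those nearest to HMGB2 were the histone genes HIST1H4D and HIST1H3H and CENPE, which encodes a kinetochore motor. Their log2 fold changes at the high dose ran from -2.48 (CDCA3) to -2.77 (HIST1H3H). LBR had SSRP1, NUP37 and HADH as neighbors, and TMPO had RTKN2, GRPEL2 and MTHFD1. HMGB3 was nearest to TIMELESS and TOPBP1, which encode replication checkpoint proteins, and to C16orf59. LMNB2 was nearest to NUP160, SUZ12 and C6orf182, and HMGA1 to INTS7, PIM1 and ID3. In the dense middle of the plot, LMNA was nearest to STXBP3, JMJD7 and ZSCAN20 and HMGA2 to NSUN4, FASTKD3 and ADCY4.

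Other proteins of the lamina and nuclear envelope were measured by 24 genes above background. None of the 24 passed 2-fold at 10 μM, and at 100 μM 2 were more than 2-fold lower, namely NUP107, a nuclear pore scaffold gene (log2 fold change -1.16), and NRM, which encodes the inner membrane protein nurim (-1.13). Beside these and the following list counts stand the shares over all genes, 3.37% higher and 1.60% lower at 10 μM and 6.76% higher and 3.66% lower at 100 μM, and with lists this small nothing is read from counts of 0 to 2. The median log2 fold change of the 24 genes was 0.04 at 10 μM and -0.35 at 100 μM. The highest at the high dose were EMD, which encodes the LEM-domain protein emerin (0.45), and TOR1AIP2 (0.27). At the low dose the lowest were UNC84B, now SUN2, of the bridge between the lamina and the cytoskeleton (-0.88), and TPR of the nuclear basket (-0.51), and the highest were CBX5, which encodes heterochromatin protein 1 alpha (0.72), and SYNE2 (0.60).

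Enzymes that process or phosphorylate lamins were measured by 9 genes above background. CDC2, now CDK1, whose kinase takes lamins apart at mitosis, had deposited signals of 1763, 2709 and 318.3, or log2 fold changes of 0.56 and -2.22. It was the 1 gene of the 9 past 2-fold over control, at the high dose. ICMT, which methylates the lipid-modified end of lamins, was next at the high dose with -0.68, and NARF (0.31) and ZMPSTE24, the protease that matures lamin A (0.09), were highest. At 10 μM PRKCA (-0.48) and CASP6, a caspase that cuts lamin A (-0.24), were lowest, and NARF was at 0.36. The median was -0.01 at 10 μM and -0.18 at 100 μM.

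Other HMG-box and nucleosome-binding HMG genes had a median log2 fold change of -0.07 at 10 μM, over 16 genes, and -0.31 at 100 μM, over 17 genes. None passed 2-fold at the low dose, where TOX3 (-0.84) and BBX (-0.33) were lowest and HMGN2 and HMGXB3 (each 0.09) highest. At the high dose SSRP1, the HMG-box subunit of the FACT histone chaperone (-1.20), and HMGN2, a nucleosome-binding protein gene (-1.01), were more than 2-fold lower. The 3 probes of HMGN2 gave -1.01, -1.01 and -0.99. TOX2 was at least 2.11-fold higher, since it was above background at the high dose and not in control cells, and TOX4 was at 0.45. Of the other HMGN genes, HMGN1 had -0.36, HMGN3 0.11 and HMGN4 -0.42 at the high dose, and HMGN5 was not above background on any array.

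Genes of senescence-associated heterochromatin and its methyltransferases were measured by 14 genes above background. Again none passed 2-fold at the low dose, where RB1 (0.60) and SUV39H2 (0.53) were highest and ASF1A (-0.46) lowest. At the high dose the histone methyltransferase genes EZH2 (-1.37) and SUV39H1 (-1.25) were more than 2-fold lower, and CABIN1 (0.34) and PML (0.28), both of senescence-linked chromatin assembly or nuclear bodies, were highest. The median was 0.12 at 10 μM and -0.15 at 100 μM. Of the receptors and partners of extracellular HMGB1, 5 of 11 were above background in each comparison with control, with medians of -0.10 and 0.19. TLR4, TLR9 and CXCR4 were not above background on any array, and AGER, the receptor for advanced glycation end products, had log2 fold changes of -0.10 and 0.13. SDC1, which encodes syndecan-1, had deposited signals of 4731, 10930 and 4849 (1.15 and 0.29), and CD24 had 26.87, 67.94 and 59.28 (1.28 and 1.39). These 2 were the genes of the list past 2-fold at the low dose, and CD24 was past it at the high dose too. The lowest of the list were CXCL12 at the low dose (-0.19) and TLR2 at the high dose, which was above background only in control cells and entered the median at its bound of no difference.

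**Figure D4:**
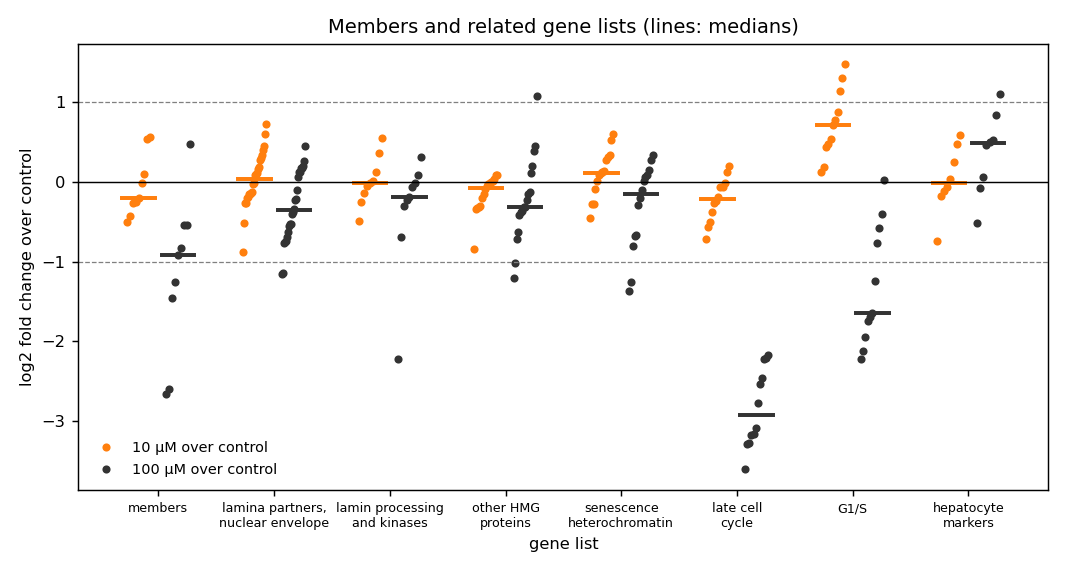
Log2 fold change over control at 10 μM (orange) and 100 μM (black) of the 9 members and of 7 related gene lists, each point 1 gene and each line the median, with dashed lines at 2-fold. The late cell cycle genes lie between -3.61 and -2.17 at 100 μM, where LMNB1 and HMGB2 also lie, whereas the other members overlap with the remaining lists.

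Transcripts of dividing cells also differed between the arrays. All 12 late cell cycle genes were more than 2-fold lower at the high dose, from -3.61 (BIRC5) to -2.17 (KIF20A) on the log2 scale with a median of -2.93 and AURKB at a bound because it was not above background there, and their median at the low dose was -0.21. The lowest at the high dose after BIRC5 was CCNB2 (-3.28) and the highest after KIF20A was AURKA (-2.21). At 10 μM PLK1 (-0.72) and AURKA (-0.57) were lowest, and TOP2A (0.20) and MKI67 (0.13) highest. The values of LMNB1 and HMGB2 fell inside the range of this list at both doses, whereas LMNA, LMNB2, HMGA1, HMGA2, LBR, TMPO and HMGB3 lay above it at the high dose. The 11 G1/S genes had medians of 0.71 at the low dose, where 3 were more than 2-fold higher, and -1.64 at the high dose, where 7 were more than 2-fold lower and CDC6 had only a bound. The highest at the low dose were CCNE2 (1.48) and CDC6 (1.30) and the lowest MCM6 (0.13) and MCM3 (0.18), and at the high dose MCM2 (-2.22) and E2F1 (-2.12) were lowest and CCNE1 (0.03) and CCNE2 (-0.39) highest. HMGB3, higher at 10 μM and lower at 100 μM, lay inside the range of the G1/S genes at both doses. The part of the number of dividing cells in the members' values was not tested.

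Among the reference genes, CDKN1A, which encodes the cell cycle inhibitor p21, had log2 fold changes of 2.99 and 2.82, MKI67 had 0.13 and -2.22, and GAPDH had -0.09 and -0.14. The 8 hepatocyte markers, with medians of -0.01 and 0.49, were all above background on every array, AFP with deposited signals of 79160, 76190 and 62990, and at the high dose they ran from ALB (-0.52) and AFP (-0.08) to SERPINA1 (0.84) and TTR (1.11). At 10 μM they ran from ALB (-0.74) and TF (-0.17) to SERPINA1 (0.48) and TTR (0.59). Of 8 markers of other cells, the fibroblast genes COL1A1, COL3A1 and DCN were not above background on any array, and PECAM1, PTPRC, CD3E and CD14 were above background on all 3. CD14, which liver cells can also express, had log2 fold changes of 1.12 and 2.08, PTPRC had -1.03 and 0.41, PECAM1 had -0.73 and -0.48, and CD3E had -0.50 and 0.43. VWF was above background at the high dose only, at least 1.60-fold higher than in control cells. The part of these markers in the members' values was not tested.

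How the arrays were set to a common scale shifted all genes together at the high dose. The 75th percentile of the deposited signal was 514 in control cells, 536.4 at 10 μM and 432.3 at 100 μM, and the median log2 fold change at the high dose over 18817 probes was 0.08 under this scaling, -0.17 without any, -0.21 after median scaling and -0.09 after spike-in scaling. The share of genes more than 2-fold lower at the high dose was 3.66% with the main scaling, 6.34% without scaling, 6.98% with median scaling and 5.41% with spike-in scaling, and the share more than 2-fold higher was 6.76%, 3.75%, 3.47% and 4.43%. Against these shares, 4, 6, 6 and 5 of the 9 members were more than 2-fold lower and none was more than 2-fold higher. LMNB1 lay between -2.88 and -2.53 and HMGB2 between -2.95 and -2.60 under these and the other scalings, LMNA stayed above 0, from 0.19 to 0.56, and HMGB3 and HMGA1 were the members brought past 2-fold. With normexp background correction, which draws dim signals together, LMNB1 was at -1.93 and TMPO at -0.73, so TMPO was no longer past 2-fold.

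**Figure D5:**
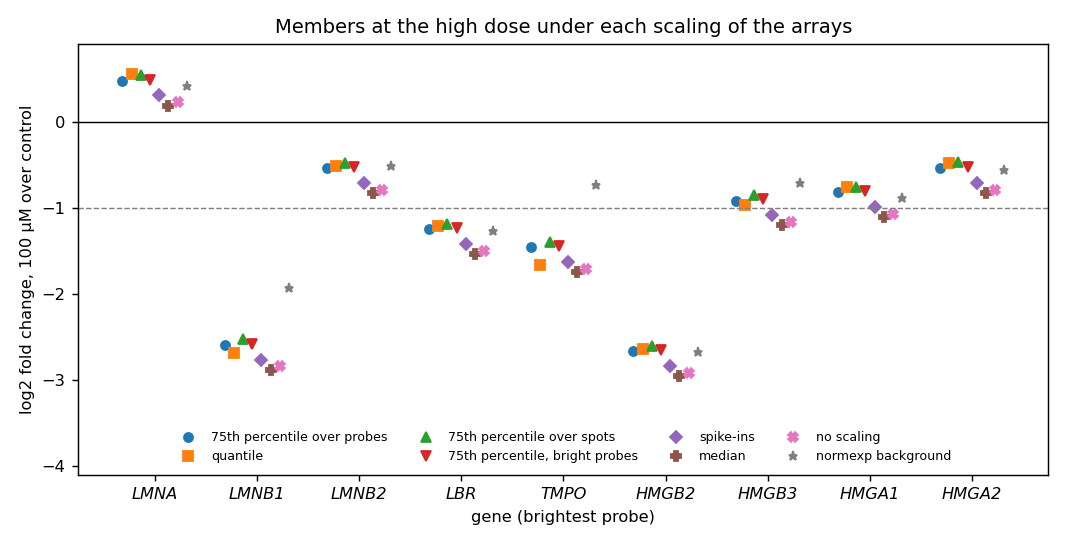
Log2 fold change at 100 μM over control of the brightest probe of each of the 9 genes under 7 scalings of the arrays and under normexp background correction, with a dashed line at 2-fold lower. LMNB1, HMGB2 and LBR lie below the line in every case, TMPO in all but normexp (-0.73), HMGB3 and HMGA1 lie on either side of it, and LMNA lies above 0 throughout.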

How the data were processed

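The members and the gene lists were chosen with earlier results of these data known. RNA of HepG2 cells was labeled with Cy3 and hybridized to 3 arrays, 1 per dose (0, 10 and 100 μM etoposide, 30 h). The authors deposited, for each spot, the intensity computed by Agilent Feature Extraction (version 10.7.3.1, per the submitters' processing notes) after background subtraction within the array, and a series table whose values equal it at all 44495 spots, so the arrays came unscaled relative to each other.

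From the deposited intensity, log2 values were averaged over the spots of a probe, without outlier spots, and the 75th percentile over all probes of the array, each counted once, was subtracted. A gene was represented by its brightest probe. A fold change was given where the brighter condition was well above background, and a dimmer signal was raised to the lowest one well above background on its array (19.51, 22.65 and 21.65). Spot-to-spot SDs are medians over the 50 repeated probes nearest in signal, out of 999 spotted 10 times. No spot was saturated. With 1 array per dose, no test was run, and the number of arrays limits the precision. Members were counted past 2-fold, the fold the study set between doses. Positions of probes were copied from the files (hg18), for which no gene annotation was used here, so exons and UTRs are not given. Current symbols and promoter windows came from RefSeq (GRCh38.p14).

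Genes named are all members, the 2 highest and 2 lowest genes of each list at each dose, the 3 nearest genes to each member, copies and relatives named after members or HMGN, and CDKN1A, MKI67 and GAPDH. Some items that this rule selects are not reported here. DICER1, IGF2BP2, IGF2BP3, AGER, TLR4, TLR9, CXCR4 and the markers of other cells were named beside them to complete their lists. The steps were tested on simulated data. Alternatives covered the scaling, normexp correction (offset 50, limma 3.58.1, R 4.3.3), the filter on dim probes, outlier spots, the choice of probe, the series table and the fold threshold. Python 3.11.15, pandas 2.3.3, numpy 2.4.6 and matplotlib 3.10.9 were used.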

Additional observations from a re-analysis of the deposited data

How the results depend on the processing

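Of the 6 member counts, 4 were 0 under every alternative. The other 2, each 4 as reported, were 6 without scaling and under median scaling, and 5 and 6 under spike-in scaling. Normexp correction gave 3 for each, without TMPO. With a 3-fold threshold, 2 members (LMNB1 and HMGB2) were lower at the high dose than in control cells, and the same 2 were higher at 10 μM than at 100 μM. With a 1.5-fold threshold, 7 members were higher at 10 μM than at 100 μM. Requiring every probe of a gene to pass left 3 members lower at the high dose (TMPO was lost), and accepting any probe gave 5 (HMGB3 was added). LBR and HMGA1 passed 2-fold between the doses without scaling and under median and spike-in scaling. Of 507 recomputed single values, including those of the dimmer probes, 373 moved by less than the spot-to-spot SD and 134 by more, and none past 2-fold changed sign. Many of the 373 could not move. Every member probe was above background on all arrays, so changing the filter on dim probes left its values as they were. The series table holds the same values as the arrays, and keeping outlier spots acted on these single-spot probes only through the scaling. The 507 values belong to 45 fold changes, of which 8 changed sign under at least 1 alternative. Among the brightest probes these were LMNA and HMGA2 between the doses and HMGA1 at the low dose. Among the dimmer probes they were A_33_P3408762 of LMNA between the doses (-0.12, up to 0.19 without scaling), A_33_P3211078 of HMGA2 between the doses (-0.10, up to 0.21) and A_33_P3357658 of HMGA2 in all 3 comparisons (at the high dose -0.04, up to 0.20). The mean of the 3 probes put HMGA2 at -0.26 and -0.25 at the low and high dose. No paired analysis was possible because there was a single array per dose, and no replicate could be left out. At signals of 20 to 50, the median spot-to-spot SD was 0.23 to 0.25 on the log2 scale, so the dimmest values at the high dose are the least precise.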
